A study of Homo sapiens with 12 samples.

Results

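OCI-Ly7 cells were compared between day 6 and day 0 of induction of a guide RNA against PRMT5, across all genes. The members were the 4 OCI-Ly7 libraries labelled day 0 and day 6, of 12 libraries in all, and the 11016 of 25369 table rows with a mean of at least 1 FPKM over the 6 OCI-Ly7 libraries. FPKM is the number of fragments mapped to a transcript, scaled to its length and to the size of the library. OCI-Ly7 and TMD8 are established human diffuse large B cell lymphoma lines, labelled germinal centre B cell-like and activated B cell-like. Cells of both lines carried a guide RNA against PRMT5 that doxycycline switches on. It was given at 20 ng/ml over 0, 3 or 6 days, and each line and day has 2 libraries. Every group, day 0 included, carried the guide, and no group received doxycycline without it, so effects of doxycycline and of the guide cannot be told apart. The labels do not say whether a line was 1 clone, or that the libraries came from separate cultures, so p-values measure only the spread between these libraries.

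PRMT5 is the main enzyme that places symmetric dimethyl marks on arginines, of histones and of Sm proteins of the spliceosome. It works in a complex with WDR77, to which adaptors such as CLNS1A, RIOK1 and COPRS bring substrates. In B cell lymphoma it is known for high expression and for links to cell growth, splicing and the germinal centre programme.

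The 6 OCI-Ly7 libraries held FPKM sums of 408131 to 455236 and 10707 to 11021 rows of at least 1 FPKM. How many reads each library held is not stated in the labels or the table. Relative depth was estimated from the most frequent ratio of low FPKM values to those of the first day 0 library. The other day 0 library came to 1.3 times its depth and the day 6 libraries to 0.8 and 0.77 times. That ratio held for only 76 of 1148 low values at day 0, and for 75 of 953 and 76 of 929 at day 6. These depths are therefore rough. The row of the 45S ribosomal RNA precursor took 14.91% and 13.86% of fragments at day 0 and 21.54% and 26.96% at day 6. It moved with the day, and its part in the changes below was not tested. In bulk samples fewer cells of a type and less RNA per cell cannot be told apart. The summed FPKM of 8 B cell markers was 1423 and 1678 at day 0 and 1586 and 1570 at day 6, with none at 0. The summed T and NK cell markers stayed between 2.06 and 3.01, and the myeloid markers between 1.26 and 1.79. CD3E and LYZ were at 0 in these libraries, while CD4 and CD68 of the same lists had means of at least 1 FPKM. The summed stromal and epithelial markers were between 12.2 and 14.6. Of these, COL1A1 was at 3.43 to 5.46 FPKM and EPCAM at 3.90 to 5.91. EPCAM was at 0 in TMD8. Of the germinal centre markers, BCL6 (41.9 to 60.2 FPKM), MME (6.72 to 10.8) and MYBL1 (5.88 to 8.15) were higher in each OCI-Ly7 library than in TMD8, where BCL6 was at most 12.9, MME 0.023 and MYBL1 1.98. IRF4, of the activated B cell-like programme, was between 65.4 and 88.8 in OCI-Ly7 and between 244 and 461 in TMD8. These 4 follow the labels, as do CCND2 and ENTPD1 of the activated B cell-like programme, which were lower in OCI-Ly7. SERPINA9, LMO2 and FOXP1 go the other way. SERPINA9 was at 0 and LMO2 at most 0.144 FPKM in OCI-Ly7, against 4.31 to 12.9 and 17.1 to 40.0 in TMD8. FOXP1, of the activated B cell-like programme, was between 11.8 and 22.1 in OCI-Ly7 and between 4.09 and 7.05 in TMD8. S1PR2, BATF and PIM1 overlapped between the lines.

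By day 6, 1252 rows had changed at an adjusted p below 0.05 (limma, Benjamini-Hochberg over the 11016 rows), which is 11.4% of them. Of these, 218 rose (1.98% of rows) and 1034 fell (9.39%). At least 2-fold changes numbered 38 upward and 54 downward. The median change over all rows was -0.13 on the scale of log2(FPKM + 1), the scale of each log2 change given here. After median-ratio scaling, which divides each library by the median ratio of its rows to their geometric mean in OCI-Ly7, the median change was 0.01. The calls then numbered 1626 (14.8%), with 739 higher (6.71%) and 887 lower (8.05%). Both scalings called 218 rows higher and 817 lower. Of the 218 and the 1034 called as deposited, 20 had a mean under 1 FPKM at day 0 and 19 at day 6, so they passed the filter only through other days. Rows of higher expression were called more often. The share was 4.92% of rows from 1 to below 5 FPKM and 20.7% of rows of at least 100 FPKM. The share called lower was 2.66% and 18.9% of these rows. Shares of gene lists below are set beside all rows, not beside rows of like expression. At day 3 only 16 rows (0.145%) were called, and 755 had an unadjusted p below 0.05. Between day 6 and day 0 that number was 3766.

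These calls rest on 2 libraries a day. Leaving out 1 of the 4 libraries of days 0 and 6 brought the 1252 calls down to 38 without day 0 replicate 1, 17 without day 0 replicate 2, 35 without day 6 replicate 1 and 19 without day 6 replicate 2. After median-ratio scaling the 1626 calls came down to 18 to 48 without 1 of these 4 libraries, and to 67 and 68 without day 3 replicate 1 and 2, which are outside the comparison. In these fits the remaining library was assumed to vary like the other days. The sizes of the changes moved far less than the calls, and both are given with each group of genes.

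**Figure D1:**
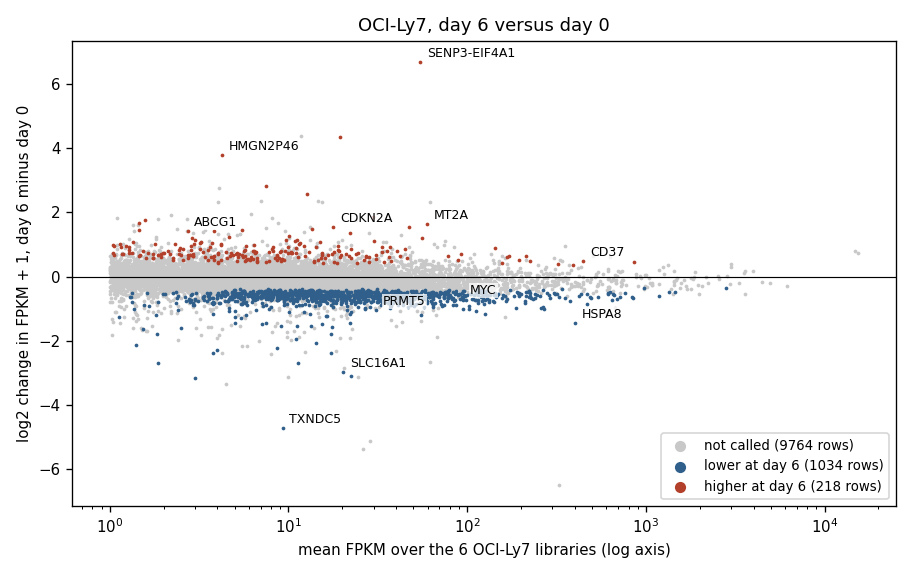
Log2 change between day 6 and day 0 (vertical) against the mean FPKM over the 6 OCI-Ly7 libraries (horizontal, log axis), with 1 point per row tested. The 1034 rows called lower form a band below 0 at middle and high expression, and the 218 called higher are spread over all levels.

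PRMT5 transcript fell with the induction of its guide, and so did its partners WDR77 and RIOK1. PRMT5 stood at 37.9 and 46.9 FPKM at day 0, 29.3 and 32.1 at day 3, then 21.0 and 19.2 by day 6. Each day 6 library lay below each library of the earlier days. The mean was 2.11 times lower at day 6 than at day 0, a log2 change of -1.04 (SE 0.13, limma adjusted p = 0.0345). WDR77, the obligate partner of PRMT5, went from 42.7 and 41.4 to 26.2 and 25.7 FPKM. The change was -0.67 (adjusted p = 0.0345). RIOK1, an adaptor, went from 26.4 and 27.8 to 19.1 and 17.0 FPKM, a change of -0.56 (adjusted p = 0.043). CLNS1A, which brings Sm proteins to PRMT5, missed the threshold at -0.37 (adjusted p = 0.0856), and COPRS changed by -0.16 (adjusted p = 0.47) with overlapping libraries. None of 9 measured genes on a list of other arginine methyltransferases, which also holds the F-box gene FBXO11, was called as deposited. After scaling 1 was higher. Over all rows 11.4% were called as deposited, and 6.71% were higher after scaling. The median change of the 9 was -0.23. The exons of WDR77 and RIOK1 overlap a gene on the opposite strand. Such overlaps are common (among named genes CDKN2A, CCT4, PSMC1, AIMP2, CDK4, CD37 and HNRNPU have one), and whether counting used strand is not given, so reads of the partners cannot be told apart. The transcript does not measure the protein. Without any 1 of the 4 libraries the 3 calls were lost, at adjusted p of 0.0743 to 0.273, with changes of 0.856 to 1.14 times their size.

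MYC fell, while the metallothioneins MT2A and MT1X, the cyclin kinase inhibitor CDKN2A and the cytokine subunit EBI3 rose. MYC, the growth-promoting transcription factor, stood at 117 and 115 FPKM at day 0, 107 and 89.6 at day 3, then 72.1 and 69.8 by day 6. Its log2 change was -0.70 (SE 0.11, limma adjusted p = 0.0345). MT2A, which binds zinc and other metals, stood at 32.5 and 32.5 FPKM at day 0, 47.8 and 39.0 at day 3, then 111 and 95.1 by day 6. The mean was 3.18 times higher at day 6, a log2 change of 1.63 (SE 0.14, adjusted p = 0.0252). The day 6 libraries of MT2A stood apart from the other 4. MT1X, a second metallothionein, went from 15.2 and 13.9 to 26.4 and 27.0 FPKM, a change of 0.84 (adjusted p = 0.0491). Of 5 measured genes of metallothioneins and the zinc response, only these 2 were called, under both scalings. Over all rows 1.98% were higher, and 6.71% after scaling. MT1G, SLC30A1 and MTF1 were not called, and 2 of the 5 changes were negative. CDKN2A, which encodes the cyclin kinase inhibitor p16 and the p53 activator ARF, stood at 7.76 and 8.95 FPKM at day 0, 20.2 and 17.2 at day 3, then 31.5 and 21.3 by day 6. Its change was 1.53 (SE 0.20, adjusted p = 0.0345), and the libraries of each day lay above those of the day before. EBI3, a subunit of the cytokines IL-27 and IL-35, stood at 7.52 and 8.64 FPKM at day 0, 10.2 and 8.30 at day 3, then 19.9 and 15.5 by day 6. The change was 1.04 (SE 0.16, adjusted p = 0.0345). The 5 calls were lost without any 1 of the 4 libraries (adjusted p 0.053 to 0.279), with changes of 0.823 to 1.18 times their size.

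**Figure D2:**
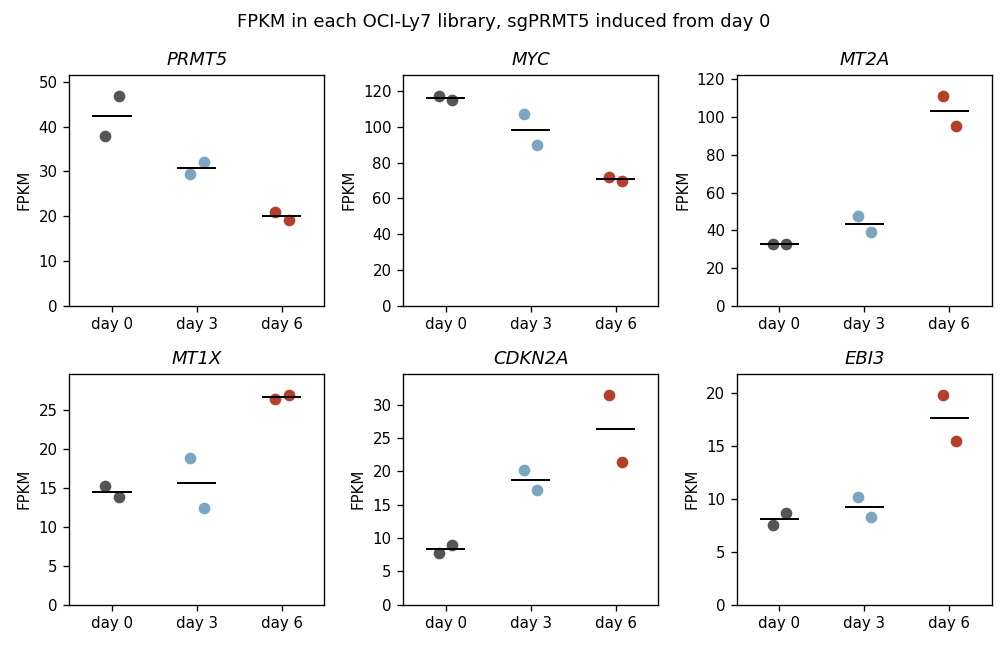
FPKM of 6 genes in each OCI-Ly7 library (vertical, from 0) by day of induction (horizontal), with a line at the mean of the 2 libraries. PRMT5 and MYC are lowest at day 6, and MT2A, MT1X, CDKN2A and EBI3 are highest there, with no overlap between day 0 and day 6.

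The 2 metallothionein genes lie on chromosome 16. Transcription of such genes is known to be driven through metal response elements, which the zinc-sensing factor MTF1 binds. The 250 bases before the RefSeq start of each (GRCh38.p14) are shown because both genes rose. Capitals mark the core of this element, TGCACNC or TGCGCNC on either strand. The MT2A window is chr16:56608334-56608583 and the MT1X window chr16:56682220-56682469, both on the plus strand.
MT2A: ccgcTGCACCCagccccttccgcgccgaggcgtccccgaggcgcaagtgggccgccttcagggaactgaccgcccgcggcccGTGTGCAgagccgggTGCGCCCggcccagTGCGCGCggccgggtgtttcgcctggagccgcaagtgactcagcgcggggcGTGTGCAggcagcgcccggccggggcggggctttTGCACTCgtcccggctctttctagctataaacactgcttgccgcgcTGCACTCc
MT1X: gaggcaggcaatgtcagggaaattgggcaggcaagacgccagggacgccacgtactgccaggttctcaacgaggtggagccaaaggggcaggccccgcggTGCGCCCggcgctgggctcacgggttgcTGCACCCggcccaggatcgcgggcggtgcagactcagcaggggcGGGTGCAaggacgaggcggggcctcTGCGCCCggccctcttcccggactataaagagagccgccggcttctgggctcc
The MT2A window held 7 cores and the MT1X window 4. At least 1 core occurred in 24.8% of the 35116 promoter windows of this length, at least 4 in 0.37%, and at least 7 in 0.0313%. A match of letters is a description and shows no binding.

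Chaperones fell together. Of 27 measured cytosolic and mitochondrial chaperones, 18 were called lower and none higher, under both scalings. This is 66.7% of the list, against 9.39% of all rows. The median change of the list was -0.57. HSPA8, the constitutive HSP70 that folds new proteins, stood at 504 and 641 FPKM at day 0, 429 and 427 at day 3, then 216 and 197 by day 6. Its change was -1.46 (SE 0.13, limma adjusted p = 0.0281), and day 6 did not overlap the other days. HSPH1, a nucleotide exchange factor of HSP70, went from 28.5 and 19.2 to 7.12 and 7.25 FPKM, with an adjusted p of 0.0461. HSPD1, the mitochondrial chaperonin, went from 222 and 264 to 132 and 116 FPKM, a change of -0.97. CCT4, a subunit of the chaperonin that folds tubulin and actin, went from 142 and 181 to 80.6 and 64.0 FPKM. The change was -1.15, and for 2 further subunits it was -0.80 (CCT2) and -0.71 (TCP1). HSPA9, the mitochondrial HSP70, fell by 0.67, and HSP90AB1, the constitutive HSP90, fell by 0.63 on the log2 scale. The cochaperones DNAJB1 and AHSA1 fell by 0.57 and 0.58. Reads of HSPA8, HSPD1 and HSP90AB1 can be shared with processed pseudogenes, so their levels are uncertain. HSPA8 kept its call without day 0 replicate 1. The other calls were lost without any 1 of the 4 libraries (adjusted p 0.0607 to 0.271), with changes of 0.815 to 1.19 times their size.

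Among genes of the endoplasmic reticulum folding machinery, HSPA5 fell, and the count of the list depended on the scaling. Of 43 measured genes, 10 were called lower (23.3%, against 9.39% of all rows) and none higher. After median-ratio scaling 4 were called lower (9.3%), against 8.05% of all rows under that scaling. TXNDC5 was among both the 10 and the 4. It passed the filter only through earlier days and shares exons with a read-through row, so its place in these counts supports nothing. HSPA5, the HSP70 of this compartment, stood at 142 and 168 FPKM at day 0 and 87.5 and 83.8 at day 6. The change was -0.85 (SE 0.12, limma adjusted p = 0.0345). MANF, a secreted stress-response protein, went from 34.5 and 38.0 to 22.5 and 23.7 FPKM, and SSR3, of the translocon, from 48.3 and 55.7 to 35.8 and 33.1. CALR and PDIA3, a lectin chaperone and its disulfide isomerase, fell by 0.59 and 0.60 on the log2 scale. Both lost their call after median-ratio scaling (adjusted p 0.0612 and 0.0598) and when either day 3 library was left out. Without any 1 of the 4 libraries of days 0 and 6 the 5 calls were lost (adjusted p 0.0743 to 0.265), with changes of 0.735 to 1.26 times their size.

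The promoter window of HSPA5 is shown because it holds the element through which ATF6 is known to act in the unfolded protein response. It is chr9:125241344-125241593 on the minus strand (GRCh38.p14, RefSeq), and capitals mark the endoplasmic reticulum stress element.
HSPA5: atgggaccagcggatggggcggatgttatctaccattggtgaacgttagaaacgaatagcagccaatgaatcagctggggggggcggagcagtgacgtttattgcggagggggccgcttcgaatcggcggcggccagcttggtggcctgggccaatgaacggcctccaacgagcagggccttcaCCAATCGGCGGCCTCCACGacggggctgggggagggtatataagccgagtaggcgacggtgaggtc
Counting a gene by any of its windows, this element occurred in 15 of 7997 tested genes (0.188%) and in 7 of 36 genes of the list (19.4%).

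Proteasome subunits fell, with 16 of 36 called lower and none higher (15 after scaling). That is 44.4% of the list, against 9.39% of all rows, with a median change of -0.38. PSMC6, an ATPase of the regulatory particle, went from 57.4 and 62.2 to 37.1 and 29.9 FPKM. Its change was -0.82 (limma adjusted p = 0.0345). PSMC1, another such ATPase, went from 58.4 and 65.9 to 36.1 and 32.6 FPKM. PSMA5 and PSMA4, of the outer rings of the core, fell by 0.95 and 0.66 on the log2 scale. PSME3, the nuclear activator, went from 39.4 and 39.7 to 23.1 and 22.7 FPKM. Both day 6 libraries were below both day 0 libraries for each of the 5. The 5 calls were lost without any 1 of the 4 libraries (adjusted p 0.0684 to 0.265), with changes of 0.778 to 1.22 times their size.

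**Figure D3:**
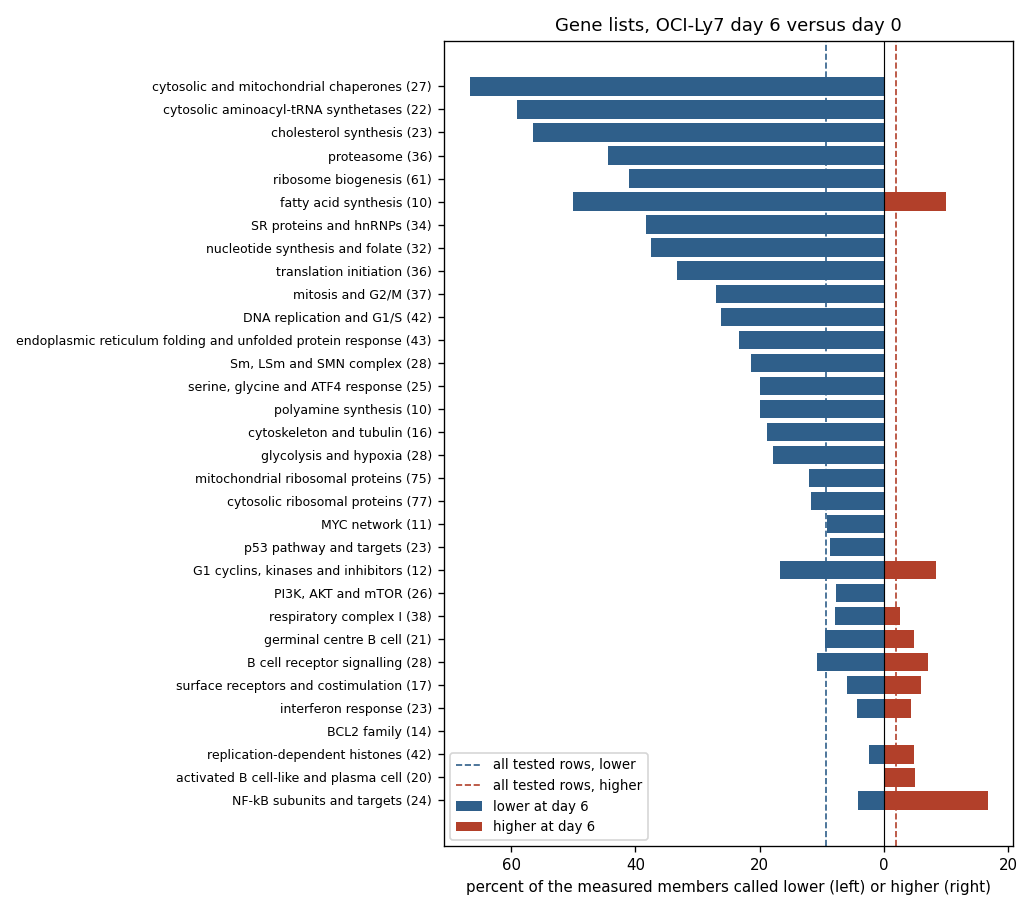
Share of the measured members of each list of at least 10 genes called lower (bars to the left) or higher (bars to the right) at day 6, as deposited, with the number measured in brackets. Dashed lines mark the shares over all rows, 9.39% lower and 1.98% higher. As deposited, the bars of chaperones, tRNA synthetases and cholesterol synthesis are the longest to the left, and that of NF-kB targets, with 4 of 24, the longest to the right. After median-ratio scaling, not drawn, 6 of 24 NF-kB targets and 7 of 28 genes of B cell receptor signalling were higher.

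Among genes that build ribosomes, DDX21, NCL and DKC1 fell. Of 61 ribosome biogenesis genes, 25 were called lower (41%, against 9.39% of all rows) and none higher, and 22 after scaling. DDX21, a nucleolar helicase, went from 33.2 and 37.1 to 17.9 and 17.3 FPKM. The change was -0.96 (SE 0.10, limma adjusted p = 0.0345). NCL (nucleolin) stood at 453 and 465 FPKM at day 0 and 284 and 254 at day 6. DKC1, which makes pseudouridine in ribosomal RNA, went from 46.3 and 46.0 to 28.0 and 25.3 FPKM. TSR1, NOP56 and UTP18, of the assembling subunits, fell by 0.82, 0.62 and 0.61 on the log2 scale. POLR1C, a subunit of RNA polymerases I and III, fell by 0.52. UBTF, the activator of ribosomal RNA genes, fell by 0.74, and its call was lost after median-ratio scaling (adjusted p = 0.0562). UTP18 lost its call when either day 3 library was left out. The 8 calls were lost without any 1 of the 4 libraries of days 0 and 6 (adjusted p 0.0723 to 0.271), with changes of 0.772 to 1.23 times their size.

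Of 77 cytosolic ribosomal proteins, 9 were called lower (11.7%) and none higher, with a median change of -0.15, close to that of all rows. The mitochondrial ones gave 9 of 75 (12%). Both shares were near the 9.39% of all rows. RPL30 went from 824 and 842 to 549 and 480 FPKM, RPS3A from 744 and 847 to 521 and 435. RPL6 fell by 0.63 on the log2 scale. Ribosomal protein genes have many processed pseudogenes, so these rows are uncertain. MRPS23 and MRPL13, of the mitochondrial ribosome, fell by 0.82 and 0.93. Among 22 tRNA synthetases and their scaffold proteins, which charge tRNAs with amino acids, 13 were lower (59.1%) under each scaling, 12 of them under both. AIMP2, a scaffold of the synthetase complex, went from 20.0 and 22.7 to 10.1 and 7.30 FPKM. Its change was -1.22 (SE 0.18, limma adjusted p = 0.0345). AIMP1, another scaffold, and the synthetases WARS and NARS fell by 0.67, 0.71 and 0.57. Of 36 initiation factor genes, 12 were called lower (33.3%) and none higher. EIF4G2, EIF2S1, EIF3A and EIF1AX fell by 0.75, 0.72, 0.76 and 0.72. The 13 named calls were lost without any 1 of the 4 libraries (adjusted p 0.0662 to 0.263), with changes of 0.78 to 1.22 times their size.

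Genes of serine, nucleotide and polyamine synthesis included PSAT1, MTHFD1L and ODC1, which fell. Of 25 genes of serine and glycine synthesis and the ATF4 response, 5 were called lower (20%) and none higher. Cells use this response when amino acids run short. The lower share over all rows was 9.39%. PSAT1, a serine synthesis enzyme, stood at 27.4 and 29.4 FPKM at day 0, 28.1 and 24.4 at day 3, then 12.9 and 11.3 by day 6. Its change was -1.17 (SE 0.12, limma adjusted p = 0.0345). CHAC1, which degrades glutathione, went from 7.59 and 6.4 to 3.05 and 2.00 FPKM, a change of -1.19. ASNS, asparagine synthetase, went from 89.6 and 97.3 to 63.1 and 54.1 FPKM. For PSAT1 and CHAC1 the day 3 libraries stayed near day 0. Of 32 genes of nucleotide synthesis and folate, 12 were lower (37.5%) and none higher. MTHFD1L, of mitochondrial folate metabolism, went from 6.34 and 7.07 to 2.70 and 2.70 FPKM, a change of -1.06 (adjusted p = 0.0281). PPAT and GART, of purine synthesis, fell by 0.67 and 0.80, and CTPS1, which makes CTP, fell by 0.64. Of 10 genes of polyamine synthesis, 2 were lower and none higher, and after scaling 3 were lower and 1 higher. ODC1, the first enzyme of polyamine synthesis, went from 129 and 130 to 76.8 and 59.8 FPKM, and AMD1 fell by 0.76. The 9 calls were lost without any 1 of the 4 libraries (adjusted p 0.0663 to 0.253), with changes of 0.796 to 1.2 times their size.

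CHAC1 and ASNS are known targets of ATF4, which binds composite elements, here TGATGNAAT or TGATGNAAC on either strand, in capitals. Their windows (GRCh38.p14, RefSeq) are shown as both genes fell. They are chr15:40953221-40953470 on the plus strand for CHAC1 and chr7:97872409-97872658 on the minus strand for ASNS.
CHAC1: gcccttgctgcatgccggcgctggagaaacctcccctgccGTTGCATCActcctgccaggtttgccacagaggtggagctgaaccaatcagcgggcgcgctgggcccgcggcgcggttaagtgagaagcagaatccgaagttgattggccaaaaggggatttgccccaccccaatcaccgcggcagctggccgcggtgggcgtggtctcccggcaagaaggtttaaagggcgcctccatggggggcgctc
ASNS: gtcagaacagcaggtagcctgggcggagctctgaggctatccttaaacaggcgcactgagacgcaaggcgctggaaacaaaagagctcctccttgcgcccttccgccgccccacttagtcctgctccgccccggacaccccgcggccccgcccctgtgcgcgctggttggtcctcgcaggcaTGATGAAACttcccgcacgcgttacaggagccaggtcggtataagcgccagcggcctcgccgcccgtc
Each held 1 such element. A second ASNS window, chr7:97872166-97872415, held none. Counting a gene by any of its windows, the element occurred in 1.07% of tested genes and in 3 of 22 genes of the list (13.6%).

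Among lipid synthesis genes, FDFT1, ACAT2 and SCD fell. Of 23 cholesterol synthesis genes, 13 were called lower (56.5%, against 9.39% of all rows) and none higher. After scaling 11 were lower and 1 higher. The list median was -0.67. FDFT1, squalene synthase, went from 45.3 and 51.2 to 25.5 and 22.8 FPKM. MSMO1, of the later steps, fell by 1.12 on the log2 scale, and ACAT2, at the start of the pathway, fell by 1.1. Of 10 fatty acid synthesis genes 5 were lower and 1 higher, and after scaling 3 were lower and 1 higher. SCD, which makes monounsaturated fatty acids, went from 31.7 and 36.9 to 16.6 and 17.2 FPKM. FADS2, another desaturase, went from 8.50 and 10.2 to 4.20 and 3.88. The 1 higher gene was ACSL1, which activates fatty acids, at 21.7 and 20.5 and then 28.9 and 28.5 FPKM. ABCG1, which exports cholesterol, was at 1.35 and 1.47 FPKM at day 0, 1.32 and 1.34 at day 3, then 5.57 and 5.33 by day 6. That change was 1.42 (SE 0.10, adjusted p = 0.0128). Without any 1 of the 4 libraries the 7 calls were lost (adjusted p 0.0602 to 0.289), with changes of 0.832 to 1.17 times their size.

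Replication and mitosis genes were lower in part. Of 42 replication and G1/S genes 11 were called lower (26.2%), and of 37 mitosis genes 10 (27%), with none higher. Over all rows 9.39% were lower. MAD2L1, of the spindle checkpoint, went from 66.6 and 77.0 to 34.0 and 27.5 FPKM. Its change was -1.20 (SE 0.14, limma adjusted p = 0.0345). CCNB1, the mitotic cyclin, went from 135 and 155 to 90.9 and 82.1 FPKM. RRM2, which makes deoxynucleotides, went from 168 and 177 to 108 and 93.9. PCNA, the sliding clamp, and its loader subunit RFC3 fell by 0.48 and 0.72 on the log2 scale, and the cyclin CCNE2 fell by 0.73. CDK4 and CDK6, the G1 kinases that p16 inhibits, fell by 0.51 and 0.41. CDK6 lost its call after median-ratio scaling (adjusted p = 0.067). CDKN1A, which encodes p21, stood at 4.94 and 4.58 and then 4.48 and 3.43 FPKM and was not called (adjusted p = 0.299). CCND3, a G1 cyclin, changed by -0.40 (adjusted p = 0.0603), and CCND2 was at most 0.106 FPKM in these libraries. Of 42 histone genes of the replicating cell 2 were higher and 1 lower, beside 1.98% of all rows higher and 9.39% lower. The histone genes HIST1H3B and HIST1H3D were the 2 higher, at changes of 0.86 and 0.77. Histone genes are near-identical copies and their transcripts lack poly(A) tails, so these rows are uncertain. CDK4 and HIST1H3B lost their calls without either day 3 library, and all 10 were lost without any 1 of the other 4 (adjusted p 0.0602 to 0.282), with changes of 0.754 to 1.25 times their size.

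Splicing genes were also lower. Of 34 SR protein and hnRNP genes, which govern splice site choice, 13 were called lower (38.2%, against 9.39% of all rows) and none higher. After scaling 13 were lower and 3 higher. Of 28 genes of Sm proteins, LSm proteins and the SMN complex that loads Sm rings onto small nuclear RNA, 6 were lower (21.4%) under each scaling, 5 of them under both. SRSF3 went from 182 and 190 to 122 and 112 FPKM, a change of -0.67 (SE 0.10, limma adjusted p = 0.0345). SRSF9 went from 161 and 160 to 99.7 and 86.5 FPKM. HNRNPC stood at 262 and 389 FPKM at day 0 against 170 and 147 at day 6, with an adjusted p of 0.041. It has many pseudogenes. HNRNPU fell by 0.75 on the log2 scale. STRAP and GEMIN5, of the SMN complex, fell by 0.70 and 0.71, and COIL, the scaffold of Cajal bodies, fell by 0.58. HNRNPC lost its call when either day 3 library was left out. The 7 calls were lost without any 1 of the other 4 (adjusted p 0.0743 to 0.262), with changes of 0.718 to 1.28 times their size.

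Among B cell genes, CD37 and PAX5 rose and BTK fell. Of 28 genes of B cell receptor signalling, 2 were higher and 3 lower, and after median-ratio scaling 7 were higher and 2 lower. The lower calls were 10.7% of the list against 9.39% of all rows, and 7.14% against 8.05% after scaling, so their share was near that of all rows. Higher calls were a larger share of the list than of all rows, where they were 1.98%, and 6.71% after scaling. Of 8 B cell markers 2 were higher, CD37 and PAX5, and 4 after scaling, beside the same shares over all rows. None was called lower, though 3 of the 8 changes were negative. MS4A1 went from 56.3 and 69.0 to 41.9 and 45.1 FPKM and was not called. CD37, a B cell tetraspanin, stood at 387 and 424 FPKM at day 0, 371 and 355 at day 3, then 558 and 583 by day 6. The change was 0.49 (SE 0.09, limma adjusted p = 0.0361). PAX5, the B lineage factor, went from 8.05 and 6.86 to 11.3 and 11.0 FPKM. RASGRP3, a nucleotide exchange factor below the receptor, went from 12.7 and 12.5 to 19.2 and 18.0. BTK, the kinase below the receptor, went from 33.0 and 36.0 to 23.6 and 20.7 FPKM, a change of -0.62 (adjusted p = 0.0408). PIK3AP1, an adaptor for PI3K, fell by 0.68 on the log2 scale, and the inhibitory receptor FCGR2B fell by 0.54. FCGR2B lost its call after scaling (adjusted p = 0.0754) and without either day 3 library. The receptor chains CD79A and CD79B changed by -0.16 and -0.22 and the kinase SYK by -0.35, with adjusted p of 0.407, 0.267 and 0.0791.

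Of 21 germinal centre genes 1 was higher and 2 lower, and after scaling 5 were higher and 2 lower. The lower share was 9.52% under each scaling, near the 9.39% and 8.05% of all rows. Higher calls were a larger share of the list than of all rows, where they were 1.98%, and 6.71% after scaling. MME (CD10) went from 9.70 and 10.8 to 6.88 and 6.72 FPKM and DENND3 from 9.85 and 7.16 to 15.7 and 19.1. BCL6, the master repressor of the germinal centre, stood at 45.4 and 41.9 FPKM at day 0 and 57.2 and 60.2 at day 6. That change of 0.42 missed the threshold (limma adjusted p = 0.0653) and passed after median-ratio scaling (0.57, adjusted p = 0.0268), though not when any 1 of the 6 libraries was then left out (adjusted p 0.0537 to 0.157). Of 20 genes of the activated B cell-like and plasma cell programmes 1 was higher, and 4 after scaling, beside 1.98% and 6.71% of all rows. The 1 gene called as deposited was FOXP1, at 14.2 and 13.5 and then 20.2 and 22.1 FPKM. IRF4 and PRDM1, the plasma cell factors, changed by -0.23 and 0.25 (adjusted p 0.189 and 0.181). BCL2, which blocks cell death, stood at 192 and 183 and then 212 and 203 FPKM (adjusted p = 0.352). It was called after scaling (0.30, adjusted p = 0.038), and that call too was lost without any 1 library (adjusted p 0.0729 to 0.195). None of 14 genes of the BCL2 family was called as deposited, and 3 were higher after scaling, where 6.71% of all rows were higher. The 9 calls on named B cell genes were lost without any 1 of the 4 libraries of days 0 and 6 (adjusted p 0.0743 to 0.28), with changes of 0.787 to 1.21 times their size.

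Among NF-kB targets, EBI3, TRAF1 and CD44 rose and NFKB1 fell. Of 24 genes 4 were higher (6 after scaling) and 1 lower, with a list median of 0.17. Over all rows 1.98% were higher, and 6.71% after scaling. TRAF1, a signalling adaptor, went from 3.95 and 3.92 to 6.71 and 7.62 FPKM, a change of 0.72 (SE 0.11, limma adjusted p = 0.0345). CD44, an adhesion receptor, went from 17.4 and 19.1 to 30.2 and 26.0 FPKM. CCL22, a chemokine, went from 0.734 and 0.597 to 1.82 and 1.55. Its mean was under 1 FPKM at day 0, so it passed the filter through the later days and its place among the 4 supports nothing. NFKB1, a subunit of the factor itself, was the lower one, at 14.7 and 17.7 and then 10.8 and 9.61 FPKM. Of 23 interferon response genes 1 was higher and 1 lower, and after scaling 4 were higher and 1 lower. ISG20, an RNA exonuclease, rose from 34.8 and 36.5 to 60.4 and 51.4 FPKM. CCR7, the lymph node homing receptor, rose by 0.69 and CD27, a costimulatory receptor, fell by 0.56. PIK3R1, the regulatory subunit of PI3K, and GSK3B fell by 0.56 and 0.50. NFKB1 lost its call without either day 3 library, and the 9 calls were lost without any 1 of the other 4 (adjusted p 0.0753 to 0.263), with changes of 0.792 to 1.21 times their size.

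Several of the largest changes were in rows that share exons with another row, and fragments can be given to either. EIF4A1, the helicase of translation initiation, stood at 540 and 591 FPKM at day 0, 370 and 427 at day 3, then 39.0 and 0 by day 6 (adjusted p = 0.0544). The read-through row SENP3-EIF4A1, on the same strand, stood at 0.303 and 0.327, 57.2 and 1.18, and 128 and 142. Its change was 6.69 (SE 1.41, limma adjusted p = 0.0429). SENP3 was at 0 in day 3 replicate 1 and day 6 replicate 2. MEF2B, a germinal centre transcription factor, stood at 60.3, 57.9, 49.5, 1.98, 1.73 and 0.0835 FPKM over the 6 libraries in order of day. The row named as its read-through with MEF2BNB, MEF2BNB-MEF2B, stood at 2.69, 0.189, 4.01, 24.5, 52.5 and 32.1. MEF2B was not called (adjusted p = 0.0572) and MEF2BNB-MEF2B was (4.33, adjusted p = 0.041). The day 3 libraries were split between the 2 states. TXNDC5, a disulfide isomerase, stood at 24.0 and 31.2 FPKM at day 0 and at most 0.175 in the later 4 libraries. Its read-through row BLOC1S5-TXNDC5 was at 0 at day 0 and 20.2 in day 6 replicate 2. ISY1, a splicing factor, went from 3.56 and 8.67 to 0.41 and 0.334 FPKM, while ISY1-RAB43 stayed between 6 and 10. TXNDC5 and ISY1 passed the filter on low values only through earlier days and SENP3-EIF4A1 only through later ones. TXNDC5 kept its call without any 1 of the libraries. The other 3 calls were lost in at least 1 such fit (adjusted p 0.0792 to 0.261), with changes of 0.762 to 1.24 times their size. The part of the assignment of fragments to rows in these changes was not tested.

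**Figure D4:**
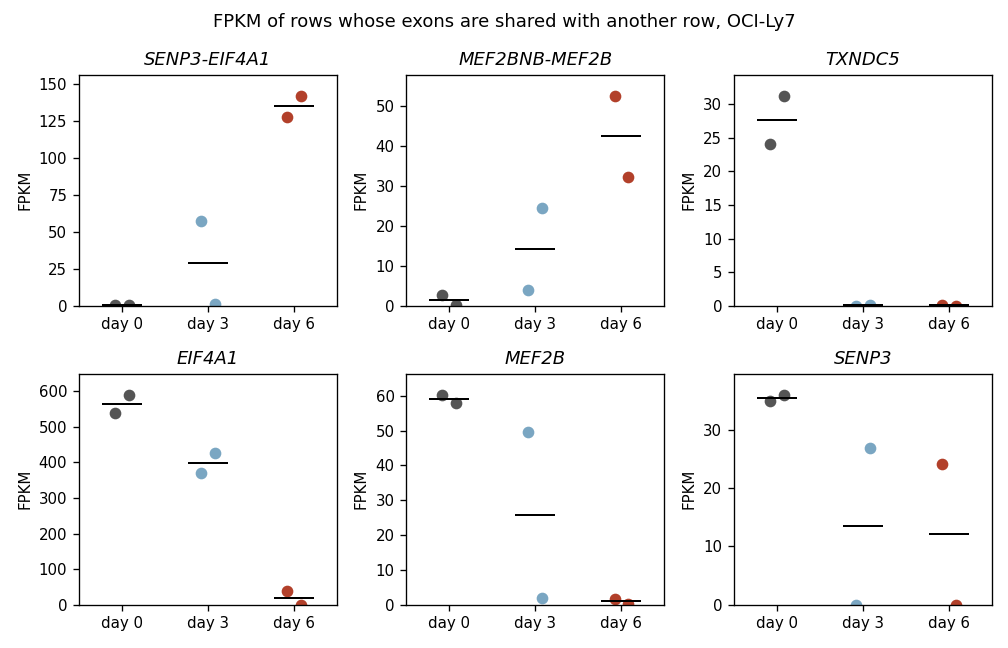
FPKM of 6 rows in each OCI-Ly7 library (vertical, from 0) by day (horizontal), with a line at the mean of the 2 libraries. SENP3-EIF4A1 and MEF2BNB-MEF2B are high where EIF4A1 and MEF2B are low, and TXNDC5 is near 0 already at day 3.

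HMGN2P46, a pseudogene, was at 0 in the 4 earlier libraries and at 13.9 and 11.6 at day 6. AKT1S1, an inhibitor of mTORC1, went from 30.2 and 22.4 to 79.3 and 77.4 FPKM, a change of 1.55 (limma adjusted p = 0.0345). The glutamate receptor subunit gene GRIN2D and the protease gene TMPRSS6 rose by 1.46 and 1.41 on the log2 scale, the ephrin gene EFNA4 by 1.27 and the cytokine receptor gene CNTFR by 1.45. GPATCH4 rose by 1.48 and was higher still at day 3. NPIPB5 and RPL23AP32 rose by 1.35 and 1.66, and as members of repeated families they are uncertain.

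SLC16A1, the lactate transporter MCT1, stood at 27.3 and 33.7 FPKM at day 0, 27.3 and 27.6 at day 3, then 2.81 and 3.13 by day 6. The change was -2.98 (SE 0.13, limma adjusted p = 0.00147). CSNK1A1, casein kinase 1 alpha, went from 24.1 and 25.4 to 3.80 and 4.06 FPKM, and NDUFA5, of respiratory complex I, from 17.0 and 15.2 to 1.92 and 1.40. Each of these 3 stayed near day 0 at day 3. TUBA4A, a tubulin, went from 34.9 and 37.7 to 3.83 and 3.01 FPKM. SLC25A11 and MRPL42, of mitochondria, were already lower at day 3, at 10.1 and 8.54 and at 11.1 and 11.1 FPKM. ATF6B, a stress-response factor, went from 7.23 and 8.73 to 0 in both day 6 libraries. NPPC and LOC100131138 were also listed at 0 at day 6, from 1.92 and 2.23 and from 2.08 and 2.89. TMCO1, JADE2 and KHNYN fell by 1.95, 1.55 and 1.53. The exons of TUBA4A, SLC25A11, TMCO1, KHNYN, AKT1S1, SLC16A1 and HMGN2P46 overlap those of a gene on the opposite strand. Among small RNA rows, MIR4451, SCARNA9 and MIR6739 rose by 2.57, 1.86 and 1.77, whereas SNORD31 fell by 2.23. SCARNA16 and MIR1248 were listed at 0 at day 6, from 4.455 and 6.73 and from 3.12 and 5.46. Small RNAs are poorly caught by such libraries, so these rows are uncertain. Of the 27 named rows of the largest changes, SLC16A1, CSNK1A1, NDUFA5, TUBA4A and MRPL42 kept their call without any 1 of the 4 libraries. HMGN2P46 did too, but it passed the filter only through day 6. CNTFR, RPL23AP32 and MIR6739 passed it only through later days, and the rows listed at 0 at day 6 only through earlier ones, so their calls support nothing. All but those 6 lost the call in at least 1 such fit (adjusted p 0.0503 to 0.271), and the changes of all 27 were 0.737 to 1.26 times their size.

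The day 6 change in OCI-Ly7 differed from that in TMD8 for 2396 of 9688 rows tested in both lines (24.7%). Without 1 of the 12 libraries this count was 1051 to 2849, and it was 1532 and 1241 without OCI-Ly7 day 0 replicate 1 and 2, 1051 and 1336 without TMD8 day 0 replicate 1 and 2, and 1510 without TMD8 day 6 replicate 1. It was higher in OCI-Ly7 for 1786 (18.4%) and lower for 610 (6.3%). After median-ratio scaling 3207 rows differed (33.1%), with 1369 higher and 1838 lower, so the direction over all rows depends on the scaling. As deposited, 18 of the 27 chaperones had a lower change in OCI-Ly7 and none a higher one. This count and the list counts below were not made after scaling. HSPA8 went from 640 and 561 to 838 and 956 FPKM in TMD8, where OCI-Ly7 fell. The difference was -2.04 (SE 0.17, limma adjusted p = 0.000795). HSPH1 differed by -2.16 (adjusted p = 0.00827). Of 36 proteasome genes 17 had a lower change in OCI-Ly7 and none a higher one. Of 23 cholesterol synthesis genes none was lower and 2 were higher, and the list medians were -0.67 in OCI-Ly7 and -0.83 in TMD8. Of 27 genes of B cell receptor signalling 11 had a higher change in OCI-Ly7 and 2 a lower one. PAX5 differed by 1.48 and CD37 by 1.14. MT2A stood at 14.1 and 12.1 FPKM at day 0 and 14.7 and 13.3 at day 6 in TMD8, and its change differed by 1.54 (adjusted p = 0.0016). EBI3 went from 75.0 and 70.1 to 49.2 and 45.4 FPKM there, a difference of 1.64 (adjusted p = 0.0017). The change of MYC differed by 0.15 (SE 0.18), which did not pass the test (adjusted p = 0.56). PRMT5 itself differed by -0.77 (adjusted p = 0.01). In TMD8 it stood at 64.8 and 60.5 FPKM at day 0, 41.3 and 42.0 at day 3, then 49.55 and 54.74 by day 6. The 45S row took 6.97% and 10.62% of fragments in TMD8 at day 0 and 27.09% and 23.48% at day 6. The part of the unequal fall of PRMT5, or of the 45S row, in the differences between the lines was not tested. CDKN2A was at 0 in every TMD8 library, so no comparison was made.

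**Figure D5:**
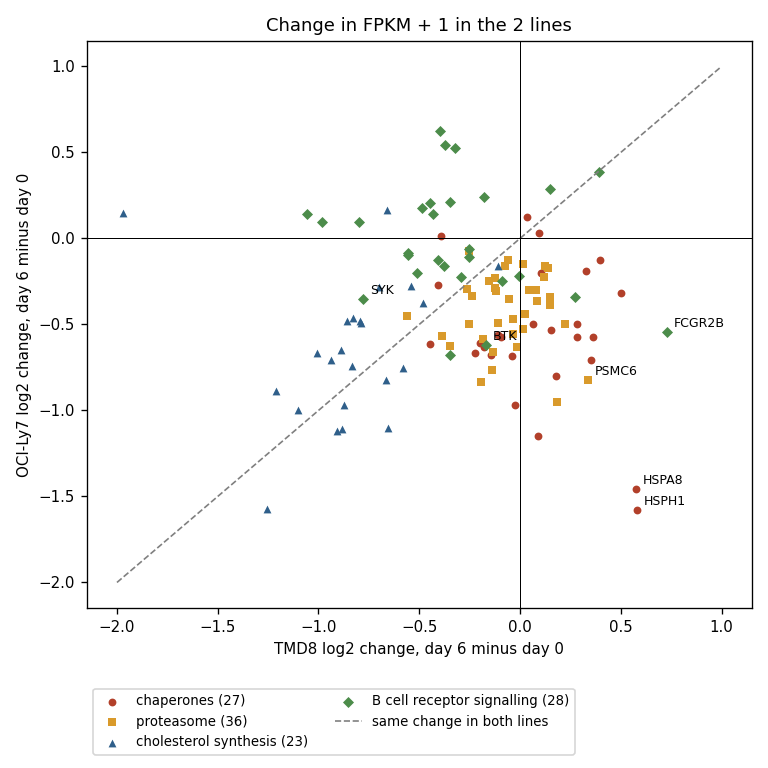
Log2 change between day 6 and day 0 in OCI-Ly7 (vertical) against TMD8 (horizontal) for the measured members of 4 lists, with a dashed line where both changes are equal. Most chaperones and proteasome genes lie below the dashed line, cholesterol synthesis genes lie mostly at lower left, and most genes of B cell receptor signalling lie above the line.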

How the data were processed

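RNA was sequenced from 2 lymphoma lines (12 libraries), extracted with RNeasy Plus mini kits and prepared by Illumina TruSeq chemistry per the labels' protocols. HISAT, StringTie and the hg19 build are named in the submitters' processing notes, without versions. The deposited FPKM values were computed by the authors per library. The labels' titles, characteristics and design text name days 0, 3 and 6 and were followed, although the treatment protocol names other days. No value column was left out.

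Changes were tested with limma 3.58.1 (R 4.3.3) on log2(FPKM + 1) for rows with a mean of at least 1 FPKM over the 6 OCI-Ly7 libraries. The 3 days shared 1 spread (3 residual degrees of freedom) moderated with a trend on expression. P-values were two-sided and adjusted by Benjamini and Hochberg over all rows tested, and called below 0.05. For TMD8 against OCI-Ly7, the 2 day 6 effects were subtracted in a fit of the 12 libraries. The fit was tested on simulated data. The libraries, the 42 gene lists and the genes to name were chosen with earlier results of these data known, so a list's direction is not independent evidence. The genes named were a fixed set, the 15 largest changes in each direction called under both scalings with groups apart (3 for small RNA, histone or date-named rows), up to 6 members per list by p (2 for a list with no call), and 8 each way for the contrast of the lines. Not all are printed, and some results are not reported here. ABCG1 and ACSL1 stand with lipid genes by function. Gene overlaps come from GENCODE v29 on GRCh38, another build than hg19, by name only. Promoter sequences come from RefSeq GRCh38.p14.

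Alternatives were median-ratio scaling, equal sums of FPKM, a pseudocount of 0.1, no filter, a mean of at least 5 FPKM, no trend, robust moderation, a replicate block, only the 2 days compared, and omission of each library in turn.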

Additional observations from a re-analysis of the deposited data

Results flagged for a closer look

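The day 6 change was tested between the lines, and the difference itself passed the test for 2396 rows as deposited and 3207 after median-ratio scaling. Among the genes reported, the differences in log2 change (OCI-Ly7 minus TMD8, limma on 12 libraries) with the greatest size upward were 2.49 for TMPRSS6, 1.97 for MIR6739, 1.73 for EFNA4, 1.64 for EBI3, 1.57 for DENND3, 1.55 for AKT1S1 and 1.54 for MT2A. Downward they were -4.59 for MEF2B, -4.37 for TXNDC5, -4.30 for SCARNA16, -2.94 for TMCO1, -2.67 for SLC16A1, -2.45 for ATF6B, -2.16 for HSPH1 and -2.04 for HSPA8. After median-ratio scaling MIR6739 differed by 1.83 and did not pass (adjusted p = 0.052), and the other 14 passed. TXNDC5 shares exons with a read-through row and MEF2B with MEF2BNB, and the exons of TMCO1, AKT1S1 and SLC16A1 overlap a gene on the opposite strand. SCARNA16 and ATF6B were listed at 0 at day 6 in OCI-Ly7, so their fitted differences depend on the pseudocount. In OCI-Ly7, TXNDC5, SCARNA16, ATF6B and MEF2B passed the filter on low values only through earlier days. MIR6739 passed it only through later ones. The place of these rows in the ranking supports nothing.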

How the results depend on the processing

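Against 1252 rows called at day 6, the other scalings, a pseudocount of 0.1, a mean of at least 5 FPKM, no trend, robust moderation and the compared days alone gave 1016 to 1626. Without a filter on low values 41 rows were called. With a replicate block there were 733, and with the block and median-ratio scaling together 729. The labels do not say whether the replicate numbers pair the libraries. Deviations of same-numbered libraries correlated at 0.13, -0.08 and 0.11 between days, which does not settle it. Leaving out 1 library gave 17 to 1225 calls, and 18, 34, 43 and 48 (a compared library) or 67 and 68 (a day 3 library) after median-ratio scaling. The causes were not tested. For day 3 against day 0, with 16 calls, the block with median-ratio scaling gave 5, and leaving out 1 library gave 13 to 29, or 15 to 27 after scaling. For the difference between the lines, with 2396 calls, a mean of at least 5 FPKM gave 1391, and leaving out 1 library gave 1051 to 2849, or 1959 to 3216 after scaling. Of 144 named genes, 137 kept direction and call after median-ratio scaling, 29 without a filter and 119 with the block, and none reversed in any alternative that kept all the libraries. COPRS, which ranged from -0.335 upward when 1 library was left out, reversed without day 6 replicate 2 (0.0133, and 0.138 after scaling) and without day 0 replicate 1 after scaling (0.00309). CD79A (0.12) and CD79B (0.0796) reversed without day 0 replicate 2 after scaling, and CDKN1A (0.0341) without day 6 replicate 2 after scaling. None of these 4 genes was called. Depth in reads was not given, so counting error could not be set beside low values.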
